A study of Mus musculus with 12 samples.

Results

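Inhibitory receptors of B lymphocytes, and the phosphatases that these receptors recruit, were followed in mouse B cells exposed to an agonist of STING. The set held 10 of the 54532 genes in the count table and was chosen by gene name. It comprised 8 receptors (Cd22, Siglecg, Cd72, Fcgr2b, Pirb, Lilrb4a, Lair1 and Cd5) and 2 phosphatases (Ptpn6 and Inpp5d). All 10 passed the filter on low counts that left 14473 genes tested. Primary B cells came by sorting from 3 wild type (WT) mice and from 3 mice labelled Tmem173-/-, in which the gene for STING is the one named in the genotype. They were given 3'3'-cGAMP, a bacterial cyclic dinucleotide that binds STING, for 12 hours, or were kept as controls. The 4 groups of 3 libraries were therefore WT cGAMP, WT control, Tmem173-/- cGAMP and Tmem173-/- control. The Tmem173 allele, the strain, the age of the mice, the sorting markers and the dose are not given in the sources used here. With 3 mice and 6 libraries in each genotype, some libraries must share a mouse, so that p-values measure the spread between these libraries.

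Each library held between 26490593 and 31417833 assigned counts. Tmem173 RNA lay at 80.2 to 103 CPM (counts scaled to a common library size after TMM normalization) in the 6 libraries labelled Tmem173-/-, at 44.7 to 49.2 CPM in WT cGAMP and at 91.2 to 102 CPM in WT control. It was thus not lower in the libraries labelled Tmem173-/- control than in WT control (log2 fold change -0.04, adjusted p = 0.935, edgeR). Transcript level therefore gave no check of that label, and every genotype contrast below rests on the label. The response did separate the labels. For cGAMP against control, 6921 of 14473 genes passed an adjusted threshold of 0.05 in WT and 0 in the libraries labelled Tmem173-/- (edgeR). The summed level of 7 B cell markers was 5636 to 6309 CPM in WT cGAMP and 7629 to 8983 CPM in the other groups, with no marker at 0. A pair of libraries stood apart in other cell types' transcripts. The 9 T cell markers summed to 28.0 CPM in WT cGAMP replicate 1 and 13.7 CPM in WT control replicate 1, against at most 5.06 CPM in the other 10 libraries. The 7 neutrophil markers summed to 21.9 CPM and 8.37 CPM in that same pair and to at most 1.66 CPM elsewhere. WT control replicate 3 was high in a list of 7 dendritic cell markers (157 CPM, against 78.9 and 79.5 CPM in the other WT controls), most of which was Bst2, an interferon-induced gene. Results are therefore also given without these libraries.

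B cell receptor signalling is held in check by receptors that carry immunoreceptor tyrosine-based inhibitory motifs (ITIMs) in their cytoplasmic tails. Once Lyn and related kinases have phosphorylated the tyrosine of such a motif, the tail binds the tyrosine phosphatase SHP-1, encoded by Ptpn6, or the inositol phosphatase SHIP-1, encoded by Inpp5d. SHP-1 removes phosphate from signalling proteins near the antigen receptor, and SHIP-1 breaks down the lipid that brings kinases such as Btk and Akt to the membrane. CD22 and Siglec-G recognise sialic acid on neighbouring glycoproteins, CD72 binds semaphorin 4D, and FcγRIIB is the only classical Fc receptor for IgG on mouse B cells. PIR-B binds MHC class I, LAIR-1 binds collagen, and CD5 marks the B-1a subset.

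The letter pattern of the inhibitory motif is what the receptors share, so a set of the coding sites is shown, 1 or more for each receptor. A coding site here is 6 codons long. It has a codon for serine, isoleucine, valine or leucine, any codon, a tyrosine codon, 2 codons of any kind and a codon for isoleucine, leucine or valine. The 8 receptors held 18 such sites wholly on the cytoplasmic side of their main hydrophobic stretch: 4 in Cd22, 3 each in Siglecg and Pirb, 2 each in Cd72, Lilrb4a and Lair1, and 1 each in Fcgr2b and Cd5. Matches in Cd5 (tyrosine codon 401) and Cd72 (tyrosine codon 95) overlapped the edge of the stretch and were not counted. The pattern is loose, since 49.1% of 21556 mouse genes with a complete coding sequence held it somewhere. Whether each match works as an inhibitory motif was not tested. The sequences were read 5′ to 3′ from GENCODE release 21 coding sequences (GRCm38), with the tyrosine codon in capitals.
Cd22 (chromosome 7), site 1, codon 783: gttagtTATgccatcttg
Cd22, site 3, codon 843: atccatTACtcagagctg
Cd22, site 4, codon 863: gtagacTATgtgaccctc
Siglecg (chromosome 7), site 2, codon 659: ctccacTATgctgctctc
Cd72 (chromosome 4), site 1, codon 7: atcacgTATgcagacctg
Fcgr2b (chromosome 1), codon 319: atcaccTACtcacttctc
Pirb (chromosome 7), site 2, codon 794: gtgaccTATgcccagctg
Pirb, site 3, codon 824: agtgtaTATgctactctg
Lilrb4a (chromosome 10), site 2, codon 322: gtaaccTATgcccagttg
Lair1 (chromosome 7), site 1, codon 228: gtgacgTATatccagctg
Cd5 (chromosome 19), codon 464: tctgctTATccagctctg
The second sites of Pirb and Lilrb4a differed at 2 of 18 bases, and the RNAs of these relatives moved in opposite directions after cGAMP in WT cells. In Cd72, whose amino end lies inside the cell, the site is near the start of the coding sequence, whereas in the other receptors it lies after the hydrophobic stretch.

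The 10 genes spanned a wide range of RNA levels. Levels between genes are compared in FPKM, which is per length. In WT control, Ptpn6 was the highest at 794 ± 34.8 FPKM (SD, n = 3 libraries here and below), followed by Cd72 at 404 ± 32.2 FPKM and Cd22 at 171 ± 40.2 FPKM. Inpp5d had 139.6 ± 15.7 FPKM, Fcgr2b 106 ± 12.3 FPKM and Siglecg 54.7 ± 19.1 FPKM. The remaining receptors were far lower, with 6.36 ± 1.34 FPKM for Pirb, 2.84 ± 0.234 FPKM for Cd5, 0.974 ± 0.482 FPKM for Lilrb4a and 0.136 ± 0.0748 FPKM for Lair1. Within WT control, Cd22 and Inpp5d were the neighbours in this order whose libraries overlapped.

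The length behind the deposited FPKM affects these comparisons. For 96.6% of 26751 genes it matched the mean length of the annotated transcripts within 1 base, and not the longer gene length listed beside the counts. For Ptpn6 the implied length was 956 bases, against a listed 2802 bases, and for Cd5 both were 2069 bases. When CPM was divided by the listed length instead, the order of the genes in WT control was the same, with Ptpn6 at 279 CPM per kb and Lair1 at 0.0364 CPM per kb. On that scale Fcgr2b (29.99 CPM per kb) and Siglecg (29.7 CPM per kb) overlapped in WT control.

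After cGAMP in WT cells, 7 of the 10 genes changed past the threshold (edgeR quasi-likelihood test, Benjamini-Hochberg adjusted p under 0.05), against 47.8% of all genes tested. The phosphatase genes Ptpn6 and Inpp5d and the receptor genes Cd22, Fcgr2b, Pirb and Cd5 fell, while Lilrb4a rose. Cd72, Siglecg and Lair1 did not pass the test. The 6 lower calls compare with 25.4% lower calls among all genes, and the 1 higher call with 22.4%. The WT cGAMP and WT control libraries did not overlap in 8 of the 10 genes, against 54.4% of genes tested, and 7 of the 8 were lower, against 28.4%. The median log2 fold change was -0.39 for the 10 genes and -0.00 over all genes tested. In bulk RNA, fewer cells of a type and less RNA per cell cannot be told apart.

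**Figure D1:**
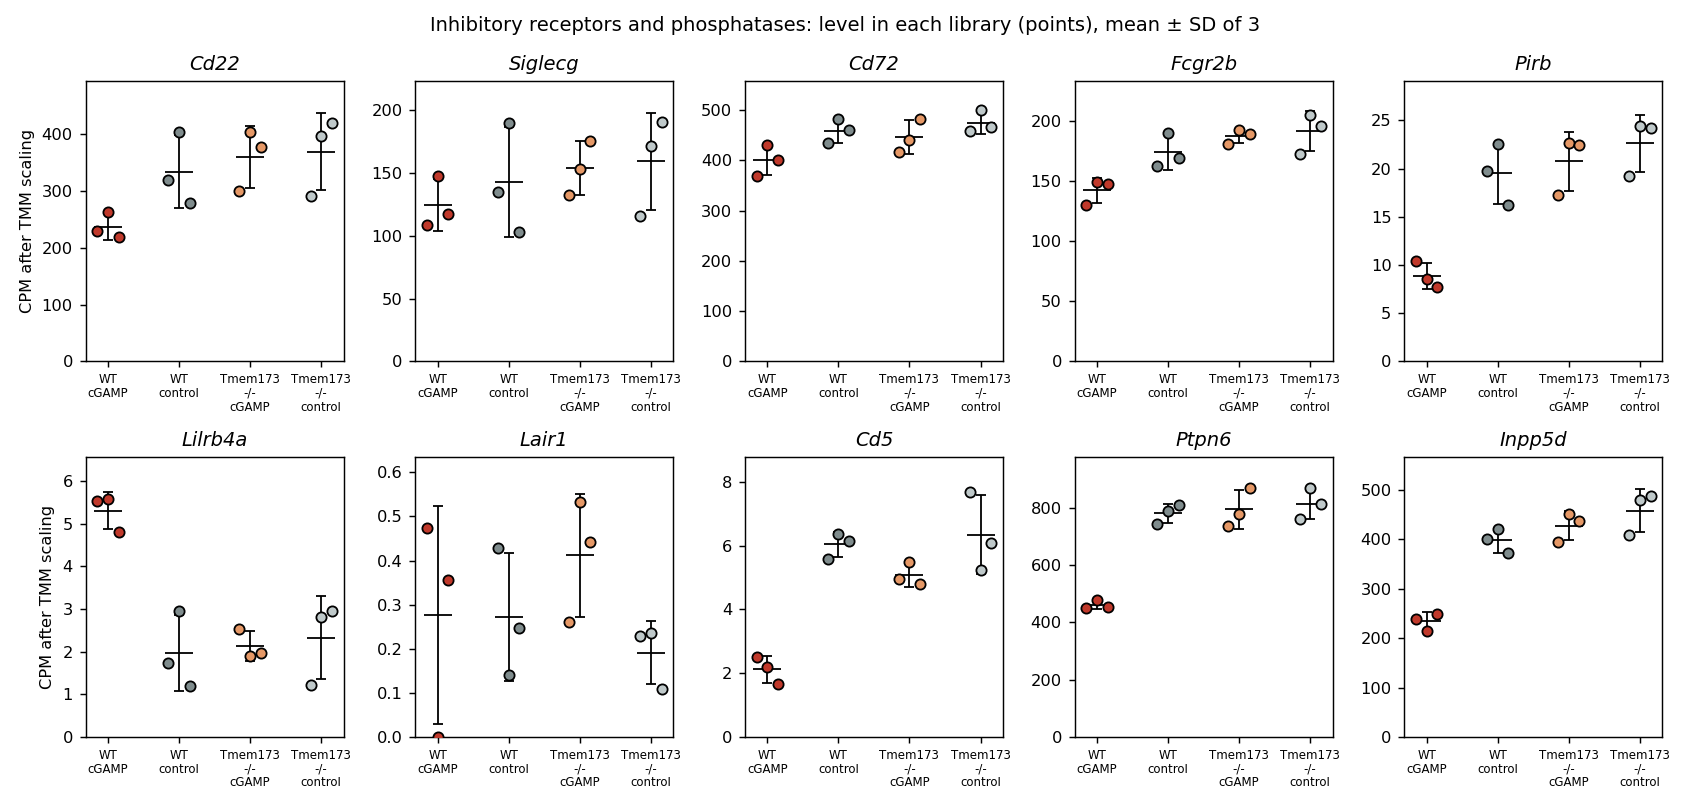
Level of each of the 10 genes in CPM after TMM scaling (vertical axes, each from 0) by group (horizontal axes), with a point for each library and bars for the mean and SD of 3 libraries. Ptpn6, Inpp5d, Pirb, Cd5, Cd22 and Fcgr2b lie lower, and Lilrb4a higher, in all 3 WT cGAMP libraries than in any other library.

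Cd22 (ENSMUSG00000030577, chr7:30865402-30880342, minus strand, GRCm38 as for all coordinates here) encodes the sialic acid receptor that is the best-known partner of SHP-1 in B cells. It had 229, 263 and 219 CPM in WT cGAMP, against 320, 404 and 279 CPM in WT control. All WT cGAMP libraries lay below all WT control libraries, although WT control replicate 3 came close. That was 1.41-fold lower, with a log2 fold change of -0.50 (SE 0.16, adjusted p = 0.0165, edgeR). The call was lost without WT cGAMP replicate 1 (adjusted p = 0.0510, edgeR), WT cGAMP replicate 3 (0.0644) or WT control replicate 2 (0.0833), and without both WT libraries numbered 1 (0.0713), while the fold change stayed between -0.62 and -0.34.

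Siglecg (ENSMUSG00000030468, chr7:43408204-43418358, plus strand) encodes Siglec-G, the other sialic acid receptor of the set, which is prominent on B-1 cells. It had 109, 148 and 117 CPM in WT cGAMP, against 135, 189.8 and 103 CPM in WT control. The groups overlapped, since WT control spread from 103 to 189.8 CPM. Siglecg had a log2 fold change of -0.20 (95% interval -0.71 to 0.32, adjusted p = 0.521, edgeR), so a fall of the size seen for Cd22 lay inside the interval. Without WT control replicate 2 the value was 0.06.

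Cd72 (ENSMUSG00000028459, chr4:43446462-43454628, minus strand) encodes an ITIM receptor that binds SHP-1 and is nearly B cell specific among lymphocytes. It had 369.9, 431 and 402 CPM in WT cGAMP, against 435, 483 and 461 CPM in WT control. The WT cGAMP libraries were all lower, the highest of them only just. Cd72 missed the threshold, with a log2 fold change of -0.20 (95% interval -0.39 to -0.00, adjusted p = 0.0882, edgeR). It passed without WT cGAMP replicate 2 (adjusted p = 0.0477, edgeR) and with the replicate number as a block (0.0309). Exons of Cd72 overlap those of Tesk1 on the opposite strand over 1423 bases, and strand use in counting is not stated. Tesk1 held 17329 counts over all libraries, against 153265 for Cd72, and did not pass the test (log2 fold change -0.12, adjusted p = 0.320).

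Fcgr2b (ENSMUSG00000026656, chr1:170958617-170976547, minus strand) encodes FcγRIIB, which recruits SHIP-1 when IgG complexes bring it to the antigen receptor. It had 129.9, 149 and 147 CPM in WT cGAMP, against 162, 189.8 and 169 CPM in WT control. No WT cGAMP library reached the lowest WT control library. Fcgr2b was 1.22-fold lower, with a log2 fold change of -0.29 (SE 0.09, adjusted p = 0.0140, edgeR). The call was lost without WT cGAMP replicate 1 (adjusted p = 0.0730, edgeR), without WT control replicate 2 (0.0643) or without both WT libraries numbered 1 (0.0516).

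Pirb (ENSMUSG00000058818, chr7:3711409-3720391, minus strand) encodes the paired immunoglobulin-like receptor B, which binds MHC class I and recruits SHP-1 in B cells and myeloid cells. It had 10.4, 8.50 and 7.76 CPM in WT cGAMP, against 19.8, 22.6 and 16.2 CPM in WT control. Every WT cGAMP library was well below every WT control library. Pirb was 2.20-fold lower, and its log2 fold change of -1.14 (SE 0.16, adjusted p = 2.22e-05, edgeR) stayed between -1.27 and -1.02 when any 1 library was left out. Of the 50-base stretches of Pirb transcripts, 34.0% also occurred in other genes, led by Gm14548, Pira2 and Lilra6, so that counts in this family can be split between genes. Those relatives fell as well in WT cells, with log2 fold changes of -2.72 for Gm14548 (adjusted p = 5.23e-07, edgeR; picked after its values were seen), -2.37 for Pira2 (2.20e-05) and -1.80 for Lilra6 (0.000727). Pira2 and Lilra6 are of the activating kind that signals through the Fc receptor gamma chain, and the gene for that chain, Fcer1g, did not pass the test (0.49, SE 0.45, adjusted p = 0.402). The 9 monocyte and macrophage markers summed to 10.8 to 19.5 CPM in WT cGAMP, against 36.4 to 46.7 CPM in WT control. Of the 9, 6 were tested, 2 fell and none rose. The largest part in WT control was Adgre1, at 4.41 CPM in WT cGAMP and 30.8 CPM in WT control. Cd68 had 4.90 CPM in WT cGAMP and 4.70 CPM in WT control, and C1qa had at most 5 counts in any library. Ms4a7 was at 0 in WT cGAMP, and Csf1r averaged less there than in WT control. Lyz2 and Cd14 had higher means in WT cGAMP, although neither rose past the threshold. Lyz2 averaged 5.79 CPM in WT cGAMP and 3.23 CPM in WT control, and Cd14 0.530 CPM and 0.141 CPM in the same groups. The part of such cells in the fall of Pirb was not tested.

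Lilrb4a (ENSMUSG00000112148, chr10:51490956-51496611, plus strand) encodes gp49B, an ITIM receptor known from mast cells, myeloid cells and activated lymphocytes. It was the exception to the downward direction, with 5.53, 5.58 and 4.81 CPM in WT cGAMP, against 1.75, 2.96 and 1.20 CPM in WT control. The lowest WT cGAMP library was above the highest WT control library. Lilrb4a was 2.69-fold higher (log2 fold change 1.43, SE 0.33, adjusted p = 0.00196, edgeR), on 135 to 162 counts per WT cGAMP library and 34 to 84 per WT control library. The value ranged from 1.17 to 1.84 when any 1 library was left out. Among 50-base stretches of Lilrb4a, 46.7% were shared with Gm49339 or Lilr4b. Gm49339 overlaps Lilrb4a on the same strand and had 0 counts in all libraries. Lilr4b, the near copy, had 8.01, 8.06 and 6.09 CPM in WT cGAMP, against 1.96, 3.48 and 1.02 CPM in WT control, and rose by 1.77 on the log2 scale (adjusted p = 0.00119, edgeR; picked after its values were seen). Reads of these copies cannot be fully told apart, so the rise is reported for the pair. Of 7 dendritic cell markers, 5 were tested, 3 rose in WT cGAMP and none fell, and the list summed to 452 to 499 CPM in WT cGAMP, against 78.9 to 157 CPM in WT control. The risers were Bst2, Flt3 and Zbtb46. Bst2 averaged 434.5 CPM in WT cGAMP and 87.9 CPM in WT control, Flt3 17.4 CPM and 8.18 CPM in the same groups, and Zbtb46 23.0 CPM and 7.12 CPM. Of the other 4, Itgax averaged 0.979 CPM in WT cGAMP and 1.42 CPM in WT control, Xcr1 had at most 24 counts in any library, and Siglech and Clec9a had at most 5. NK cell markers summed to at most 3.57 CPM in any library. The part of such cells in the rise of Lilrb4a was not tested.

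Lair1 (ENSMUSG00000055541, chr7:4003402-4063204, minus strand) encodes the collagen receptor LAIR-1 and was close to undetected. It had 13, 0 and 10 counts in WT cGAMP, against 12, 4 and 7 counts in WT control. A count of 0 in WT cGAMP replicate 2 allows a level of up to 0.103 CPM (3 counts, counting error only). The groups overlapped, and both held 23 counts in all. A difference was not detectable at this depth (log2 fold change 0.01, 95% interval -1.64 to 1.67, adjusted p = 0.992, edgeR), and the sign changed with several settings.

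Cd5 (ENSMUSG00000024669, chr19:10718143-10738974, minus strand) encodes a scavenger receptor family protein that dampens antigen receptor signals in T cells and in B-1a cells. It had 2.51, 2.20 and 1.67 CPM in WT cGAMP, against 5.59, 6.37 and 6.15 CPM in WT control. The groups were far apart relative to their spread, on 47 to 69 counts per WT cGAMP library and 157 to 181 per WT control library. The log2 fold change of -1.50 (SE 0.20, adjusted p = 1.31e-05, edgeR) was the largest fall in the set, 2.83-fold. It stayed between -1.64 and -1.36 when any 1 library was left out. Without both WT libraries numbered 1, which held the most T cell transcripts, the value was -1.69 (adjusted p = 0.000103, edgeR). None of the 5 T cell markers that could be tested passed the threshold. Markers of B-1 cells did not move one way. Of 5, 4 were tested, and 3 of these fell, while Itgam had at most 10 counts in any library. Cd9 was at 12.3 CPM in WT cGAMP and 29.7 CPM in WT control, Spn at 18.9 CPM and 50.8 CPM, and Bhlhe41 at 5.05 CPM and 9.21 CPM in the same groups. Zbtb32 rose, to 237 CPM in WT cGAMP against 12.0 CPM in WT control, and set the sum of the 5, which was 221 to 337 CPM in WT cGAMP and 93.6 to 111 CPM in WT control. The part of B-1 or T cells in the fall of Cd5 was not tested.

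Ptpn6 (ENSMUSG00000004266, chr6:124720707-124738714, minus strand) encodes SHP-1, the phosphatase through which CD22, CD72 and PIR-B act. It had 449.5, 479 and 454 CPM in WT cGAMP, against 745, 789.9 and 808 CPM in WT control. The WT cGAMP libraries formed a narrow band far below the WT controls. The log2 fold change was -0.76 (SE 0.09, adjusted p = 7.01e-06, edgeR), or 1.69-fold lower, and ranged from -0.80 to -0.74 when any 1 library was left out.

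Inpp5d (ENSMUSG00000026288, chr1:87620312-87720507, plus strand) encodes SHIP-1, the partner of FcγRIIB. It had 239.9, 214 and 249.6 CPM in WT cGAMP, against 401, 421 and 372 CPM in WT control. All WT cGAMP libraries were again lower than all WT controls. The log2 fold change of -0.76 (SE 0.10, adjusted p = 9.64e-06, edgeR) matched that of Ptpn6 within its error, at 1.70-fold lower, and stayed between -0.82 and -0.70 when any 1 library was left out.

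In FPKM, the fall of Inpp5d brought it beside Fcgr2b. In WT cGAMP, Fcgr2b had 90.7 ± 6.47 FPKM and Inpp5d 86.1 ± 6.58 FPKM, and their libraries overlapped. Lilrb4a, the rising gene, reached 2.72 ± 0.234 FPKM in WT cGAMP, overlapped Pirb at 3.02 ± 0.471 FPKM and lay above Cd5 at 1.05 ± 0.214 FPKM. By listed length these positions were less clear, since Inpp5d (30.8 CPM per kb) stayed above Fcgr2b (24.5 CPM per kb), and Cd5 (1.03 CPM per kb) and Lilrb4a (1.02 CPM per kb) overlapped. Leaving out both WT libraries numbered 1 gave 5 of 10 calls, as Cd22 and Fcgr2b were lost, and 37.5% of all genes tested were then called. Leaving out WT control replicate 3 gave 7 calls, with 41.1% of all genes called.

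The libraries labelled Tmem173-/- showed none of these changes at the same threshold. None of the 10 genes passed the test for Tmem173-/- cGAMP against Tmem173-/- control in edgeR, none had an unadjusted p under 0.05, and DESeq2, limma-voom and limma-trend also called 0. The background was 0% of the 14473 genes, of which 203 had an unadjusted p under 0.05. Ptpn6 had 736, 779 and 868 CPM in Tmem173-/- cGAMP, against 759.7, 867 and 814 CPM in Tmem173-/- control, and Inpp5d had 395, 450.5 and 438 CPM, against 409, 479 and 487 CPM. In both genes the groups overlapped. The log2 fold change was -0.03 for Ptpn6 (95% interval -0.23 to 0.16) and -0.10 for Inpp5d (-0.30 to 0.11), so neither interval reached the fall measured in WT cells.

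Pirb had 17.2, 22.7 and 22.4 CPM in Tmem173-/- cGAMP, against 19.2, 24.4 and 24.2 CPM in Tmem173-/- control. Lilrb4a had 2.53, 1.897 and 1.97 CPM in Tmem173-/- cGAMP, against 1.21, 2.82 and 2.96 CPM in Tmem173-/- control. These groups overlapped as well, with log2 fold changes of -0.12 (95% interval -0.44 to 0.20) for Pirb and -0.13 (-0.83 to 0.58) for Lilrb4a. Cd5 had 4.95, 5.49 and 4.79 CPM in Tmem173-/- cGAMP, against 7.68, 5.24 and 6.09 CPM in Tmem173-/- control. Its log2 fold change was -0.32 (95% interval -0.71 to 0.07, adjusted p = 1, edgeR), the most negative in the set.

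Cd22 had 299, 403 and 378 CPM in Tmem173-/- cGAMP, against 292, 396 and 419.95 CPM in Tmem173-/- control. Fcgr2b had 181, 192 and 189 CPM in Tmem173-/- cGAMP, against 173, 205 and 196 CPM in Tmem173-/- control. In both, the groups overlapped, with log2 fold changes of -0.04 and -0.03. Siglecg spanned 132 to 175 CPM in Tmem173-/- cGAMP and 116 to 190.4 CPM in Tmem173-/- control, and Cd72 spanned 416 to 483 CPM and 459 to 501 CPM in the same groups. Their log2 fold changes were -0.05 and -0.09. Lair1, with 7, 16 and 13 counts in Tmem173-/- cGAMP against 7, 7 and 3 in Tmem173-/- control, had no overlap in CPM, as did 6.64% of all genes tested. Its fold change of 1.09 had a 95% interval of -0.55 to 2.72.

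**Figure D2:**
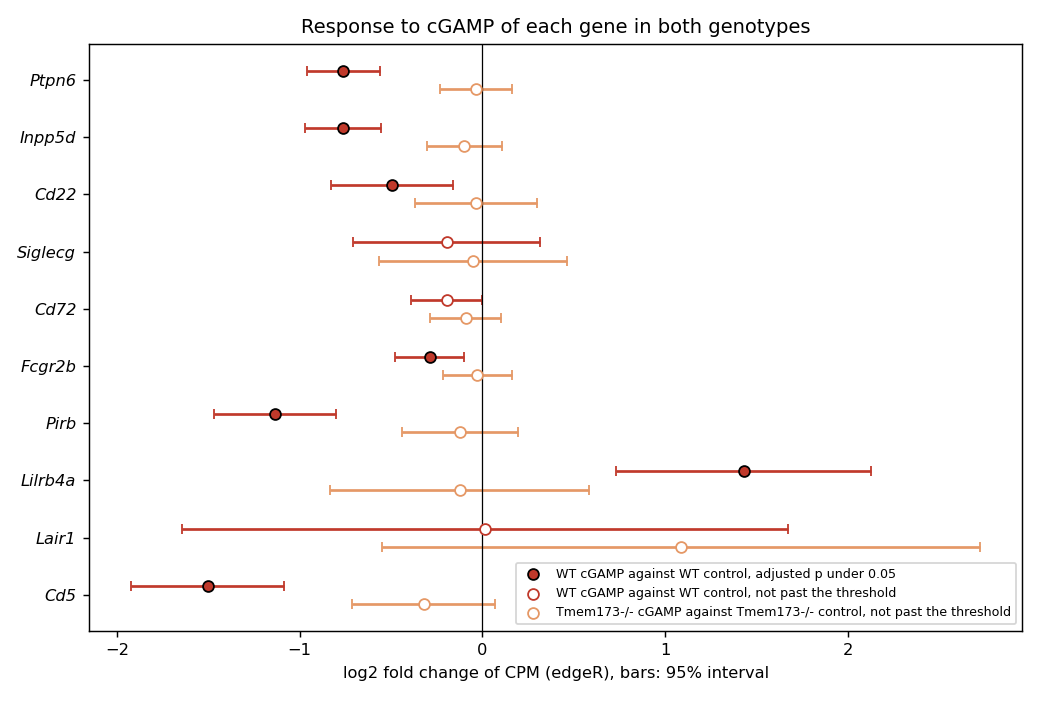
The log2 fold change of cGAMP against control for each gene (rows), from edgeR, in WT libraries (red, upper of each pair) and in libraries labelled Tmem173-/- (orange, lower), with bars for the 95% interval. Filled points passed the adjusted threshold of 0.05. The 7 filled points are all in WT, and the Tmem173-/- values other than Lair1 lie between -0.32 and -0.03.

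The response itself differed between the genotypes for 5 of the 10 genes (interaction term in the same fit, Tmem173-/- response minus WT response), against 31.6% of all genes tested. The difference was 0.73 for Ptpn6 (SE 0.13, adjusted p = 0.000661, edgeR) and 0.66 for Inpp5d (SE 0.14, adjusted p = 0.00169). For the receptors it was 1.01 for Pirb (SE 0.22, adjusted p = 0.00220, edgeR), 1.18 for Cd5 (SE 0.27, adjusted p = 0.00341) and -1.55 for Lilrb4a (SE 0.47, adjusted p = 0.0187). The Lilrb4a call was lost without Tmem173-/- cGAMP replicate 2 (adjusted p = 0.0510, edgeR), Tmem173-/- control replicate 2 (0.0552) or replicate 3 (0.0532), and without both WT libraries numbered 1 (0.0740). For Cd22 (0.46, 95% interval -0.01 to 0.93, adjusted p = 0.129, edgeR) and Fcgr2b (0.26, -0.01 to 0.53, adjusted p = 0.132) the difference missed the threshold in this fit, which does not use the replicate numbers. With the replicate number as a block, both were called (0.45, adjusted p = 0.00286, and 0.26, adjusted p = 0.0308, edgeR). That made 7 of the 10 genes, against 39.1% of all genes tested. Cd72 (0.10, -0.17 to 0.38), Siglecg (0.14, -0.58 to 0.87) and Lair1 (1.07, -1.26 to 3.40) also missed the threshold.

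Without agonist, none of the 10 genes passed the test between the genotypes, and none had an unadjusted p under 0.05 (edgeR, background 0% of genes called, 921 with an unadjusted p under 0.05). DESeq2 called 4 genes, none of them in the set. Inpp5d came nearest, with 458 ± 42.9 CPM in Tmem173-/- control and 398 ± 24.8 CPM in WT control (log2 fold change 0.20, 95% interval -0.00 to 0.41, adjusted p = 0.728, edgeR). Under cGAMP, 7 of the 10 differed between Tmem173-/- cGAMP and WT cGAMP, against 48.3% of all genes. Of the 7, 6 were higher in Tmem173-/- cGAMP, against 24.9% of all genes, and 1 was lower, against 23.5%. This contrast shares its WT cGAMP libraries with the WT response. Ptpn6 averaged 794 ± 67.3 CPM in Tmem173-/- cGAMP and 461 ± 15.7 CPM in WT cGAMP (log2 fold change 0.79), and Inpp5d 428 ± 29.3 CPM and 234 ± 18.5 CPM (0.87). Cd5 was higher by 1.25, Pirb by 1.23, Cd22 by 0.60 and Fcgr2b by 0.40 on the log2 scale in Tmem173-/- cGAMP, and Lilrb4a was lower (-1.32).

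The signalling partners of the set were described from lists of genes chosen with earlier results of these data known, so that their counts are not independent evidence of direction. Of 19 genes of the activating receptor complex and its proximal kinases, 17 fell, 1 rose and 1 did not pass the test in WT cGAMP against WT control. Of all genes tested, 25.4% fell and 22.4% rose past the threshold. The median log2 fold change was -0.66 for the list, against -0.00 over all genes tested. Cr2, the complement receptor of the coreceptor complex, fell by 2.29 on the log2 scale (SE 0.13, adjusted p = 2.13e-09, edgeR). The kinase genes Blk, Fyn and Syk fell by 1.13, 0.88 and 1.47, and Lyn, whose kinase phosphorylates the ITIMs, fell by 0.87. None of these 19 genes passed the test in the libraries labelled Tmem173-/-.

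Adaptors and kinases that act with the inhibitory receptors were mixed. Of 12 tested, 7 fell (against 25.4% of all genes tested), 2 rose (against 22.4%) and 3 did not pass. The median log2 fold change was -0.46. Csk, which restrains Src kinases, fell by 0.81 on the log2 scale, its membrane anchor gene Pag1 by 1.07, and the ubiquitin ligase gene Cblb by 0.77. Dok1, an adaptor that binds RasGAP downstream of FcγRIIB, rose by 1.41 (SE 0.09, adjusted p = 1.19e-08, edgeR), to 67.4 ± 1.52 FPKM in WT cGAMP against 24.1 ± 1.93 FPKM in WT control.

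Among 11 other inhibitory receptor genes tested, 6 fell (against 25.4% of all genes tested), 3 rose (against 22.4%) and 2 did not pass. Their median was -0.44. Ceacam1 fell by 1.21 on the log2 scale, Vsir by 1.06 and Sirpa by 2.52. Lag3, an inhibitory receptor that binds MHC class II, rose by 3.21 (SE 0.18, adjusted p = 6.04e-09, edgeR) and had 73.8 ± 17.7 FPKM in WT cGAMP and 7.62 ± 1.47 FPKM in WT control. The WT cGAMP mean lay between those of Siglecg and Fcgr2b. The other risers were Tigit (4.12) and Cd300lf (0.75), named because they were so few.

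Of 19 other tyrosine and inositol phosphatase genes, 12 fell (against 25.4% of all genes tested), 1 rose (against 22.4%) and 6 did not pass. The median log2 fold change was -0.54. Ptprj and Ptprc (CD45), receptor phosphatases that release the brake on Src kinases, fell by 1.26 and 0.99 on the log2 scale, and Ptpn7 by 1.30. The close relatives of the set's phosphatases did not pass the test. Ptpn11, encoding SHP-2, had a log2 fold change of 0.02 (SE 0.09, adjusted p = 0.847, edgeR), and Inppl1, encoding SHIP-2, one of -0.31 (SE 0.16, adjusted p = 0.127). The 1 riser was Ptpn2, by 0.48.

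Ligands and the sialic acid pathway were measured in 14 genes. Of these, 8 fell (against 25.4% of all genes tested), 2 rose (against 22.4%) and 4 did not pass, with a median log2 fold change of -0.44. St6gal1, whose product adds the sialic acid that CD22 binds, fell by 1.43 on the log2 scale (SE 0.08, adjusted p = 1.29e-09, edgeR). It averaged 26.0 ± 0.593 FPKM in WT cGAMP and 67.0 ± 6.03 FPKM in WT control. St3gal1 fell by 0.90 and Gne, the first enzyme of sialic acid synthesis, by 0.67. Cd24a, whose sialylated product binds Siglec-G, fell by 1.52. The 2 risers were the MHC class I genes H2-K1 (0.66) and H2-D1 (0.38), whose products are ligands of PIR-B.

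Of 12 downstream products and targets, 7 fell (against 25.4% of all genes tested), 3 rose (against 22.4%) and 2 did not pass. The median log2 fold change was -0.52. Foxo1, a transcription factor held back by Akt, fell by 1.36 on the log2 scale, and the antigen receptor response genes Egr1 and Egr2 by 0.83 and 1.84. Myc rose by 1.08 (SE 0.11, adjusted p = 5.92e-07, edgeR). In the libraries labelled Tmem173-/-, none of the tested genes in any of these lists passed the threshold in edgeR.

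**Figure D3:**
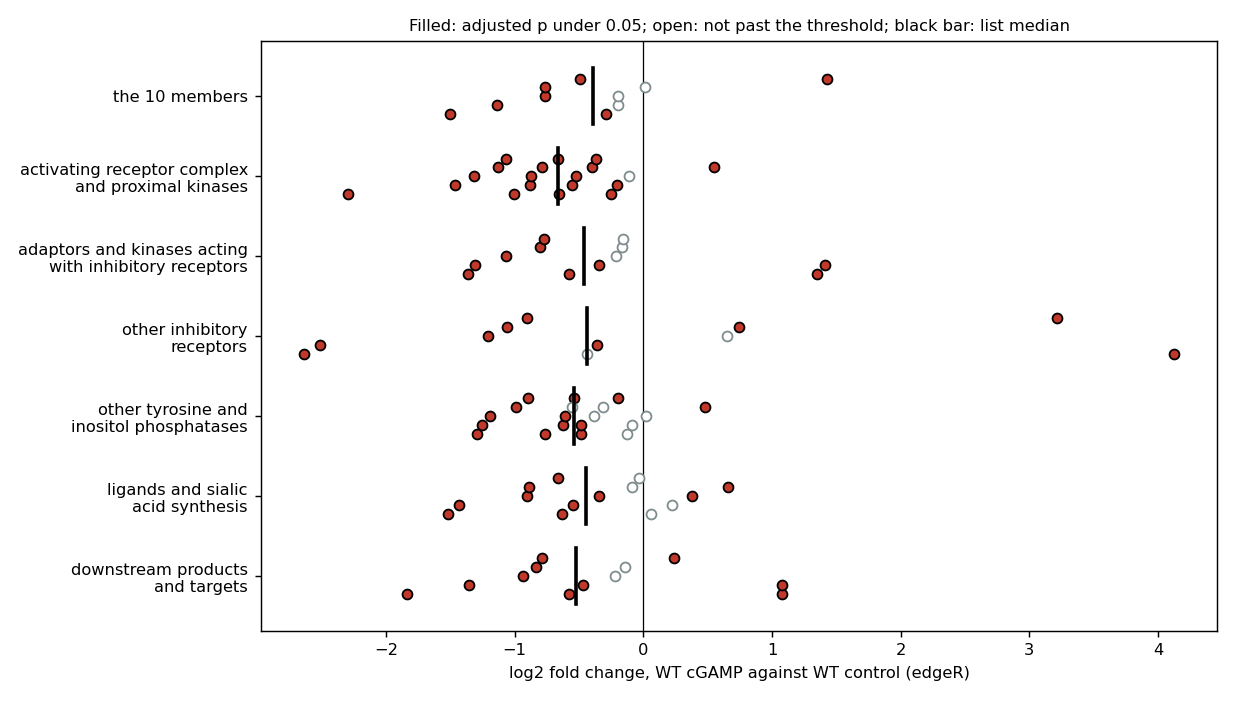
The log2 fold change of WT cGAMP against WT control (horizontal axis) for the 10 genes and for the genes of 6 lists of partners (rows), with filled points past the adjusted threshold and a black bar for the median of each list. The medians run from -0.66 (activating complex) to -0.39 (the 10 genes), and single genes lie on both sides of 0 in every row.

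Ratios within a library show how the balance of transcripts shifted. In FPKM, Cd22 over Cd79b, a signalling chain of the antigen receptor, was 0.312, 0.268 and 0.269 in WT cGAMP against 0.177, 0.185 and 0.121 in WT control. All WT cGAMP libraries were above all WT control libraries. Cd79b itself fell by 1.31 on the log2 scale (adjusted p = 4.76e-07, edgeR).

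The 2 SH2-domain tyrosine phosphatases moved apart, with Ptpn6 over Ptpn11 at 15.0 ± 2.29 in WT cGAMP and 25.6 ± 2.49 in WT control. Ptpn6 over Lyn, the phosphatase against the kinase, was 5.09 ± 0.190 in WT cGAMP and 4.71 ± 0.0513 in WT control, without overlap between these groups. It was 4.73 ± 0.339 in Tmem173-/- cGAMP and 4.82 ± 0.302 in Tmem173-/- control, and both of these groups overlapped WT cGAMP. In the libraries labelled Tmem173-/-, Cd22 over Cd79b was 0.172 ± 0.0138 in cGAMP and 0.181 ± 0.0331 in control, and Ptpn6 over Ptpn11 was 26.4 ± 1.88 in cGAMP and 26.6 ± 2.51 in control. These ratios were given no test.

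**Figure D4:**
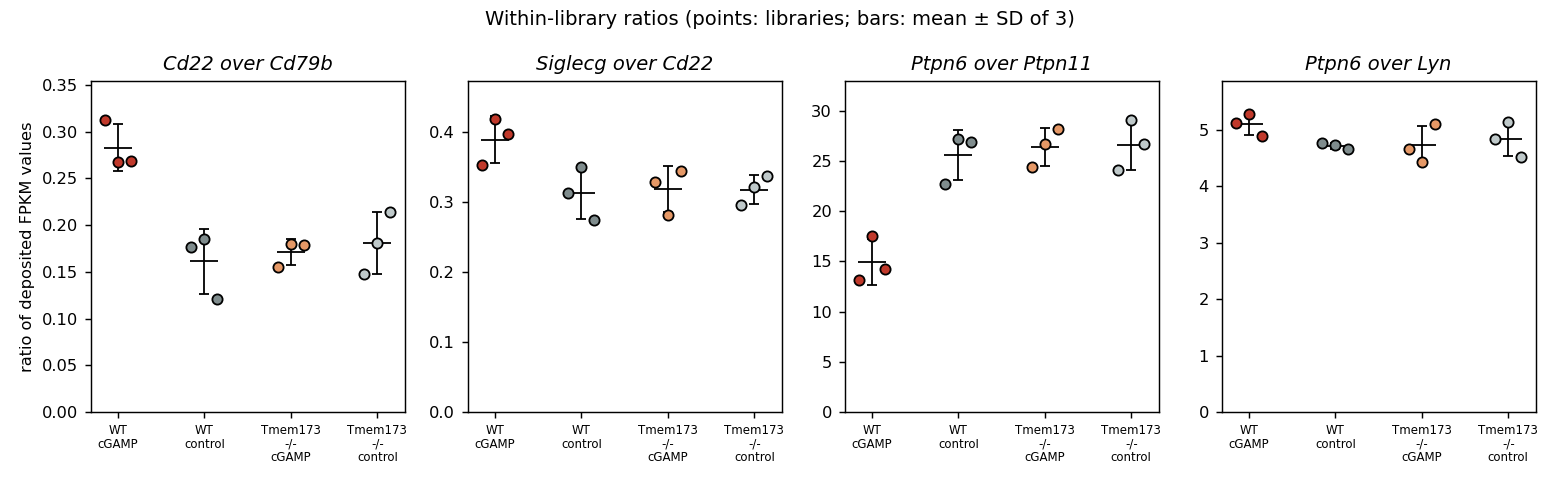
Ratios of deposited FPKM values within each library (points), with bars for the mean and SD of 3, by group. Ptpn6 over Ptpn11 is lowest in WT cGAMP, Cd22 over Cd79b and Siglecg over Cd22 are highest there, and Ptpn6 over Lyn stays between 4.43 and 5.27 in all libraries.

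The genes most like each member in pattern were taken as those with the highest Pearson r of log2 CPM over the 12 libraries, among 9411 eligible genes. These values are a description, since the libraries share their groups and WT cGAMP stands apart in most of them. For Ptpn6 they were Ncf4 (r = 0.996), Eno3 (0.993) and Coro1a (0.991), and for Inpp5d Bicral (0.996), Pag1 (0.994) and Arrb1 (0.994). Pirb was closest to Casp2 (0.986), Cd5 to Akt2 (0.979), Fcgr2b to Snx30 (0.983), Cd22 to Acox3 (0.980) and Siglecg to Vamp1 (0.980). Lilrb4a was closest to Cep95 (0.977) and Cd72 to Ilvbl (0.923). For Lair1, with its few counts, the second best gene already fell to 0.795.

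Promoters were read because most of the set moved together. RefSeq promoter sequences (GRCm38.p6, 250 bases before to 50 after the start) were at hand for 9 of the 10 genes, and Lilrb4a was not among them. The letters GAGGAAGT, a core that PU.1 and other ETS factors of B cells can bind, were found on either strand in 4 of the 9, against 3.2% of 32851 mouse promoters. That share is per promoter and not limited to genes expressed in B cells, and the 9 genes had 10 promoters. Neither enrichment of the letters nor a link to the response was tested. The windows of 30 bases around them are shown 5′ to 3′ on the gene's strand, with the match in capitals.
Cd72, chr4:43454657-43454686, minus strand, reverse complement of the letters: gccaaagacctACTTCCTCttttatgactt
Pirb, chr7:3720484-3720513, minus strand: gtcacaccattGAGGAAGTcagagcatggt
Cd5, chr19:10739009-10739038, minus strand: ggtttcacaggGAGGAAGTtgacagttcaa
Inpp5d, chr1:87620281-87620310, plus strand: gtttctataatGAGGAAGTtctgtgcagct
Of these 4 genes, Pirb, Cd5 and Inpp5d fell in WT cGAMP and Cd72 missed the threshold. Ptpn6, Cd22 and Fcgr2b fell without these letters in the window. The windows of Cd22 (chr7:30878979-30879278) and Fcgr2b (chr1:170976022-170976321) lie wholly inside the gene spans given above. Sequence before the outer start of these genes was therefore not read. A pattern of the interferon response element, GAAA followed after 2 free bases by GAAA (3.44% of promoters), and one of the NF-kB site, GGGA followed after 2 free bases by TTCC (1.47%), were also searched on both strands. Neither was found in the 9, so the matches shown overlap no other pattern searched.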

How the data were processed

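Per the submitters' processing notes, reads were handled with fastp, STAR and featureCounts on GRCm38 (mm10). Versions, annotation and strand setting are not given in the sources used here. The authors deposited raw counts per gene and an FPKM value made from the same counts, per the file headers; both count tables held the same values. The deposited counts went into edgeR 4.0.16 under R 4.3.3: filterByExpr by group, TMM scaling, robust quasi-likelihood fits with a mean for each of 4 groups, and two-sided F tests adjusted by Benjamini-Hochberg over 14473 genes within each of 5 contrasts, threshold 0.05. SE is the log2 fold change over the square root of F, and intervals are 95%. CPM (after TMM) compares 1 gene across libraries, and deposited FPKM compares genes. Alternatives were other scalings, no filter, DESeq2 1.42.0, limma 3.58.1 (voom, and trend on log2(FPKM + 1) or + 0.1), a replicate block, fewer groups and left-out libraries.

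The 10 genes and all lists were chosen with earlier results of these data known. Named genes were the 10, the 4 genes with the smallest p in WT of each list, and up to 3 genes nearest in pattern with at least 5 CPM in a group; Lyn, Cd79b, Ptpn11, Inppl1, Lilr4b, Gm14548, Tesk1 and small groups of risers were added after their values were seen. Intervals and floors cover counting error only where they rest on counts of 1 library, since PCR reads are not independent molecules. The analysis was tested on simulated data. Protein sequences were not used here, and some genes of the lists are not reported here by name.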

Additional observations from a re-analysis of the deposited data

Results flagged for a closer look

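For 5 of the 10 genes the response to cGAMP differed between the genotypes by the interaction term of the edgeR fit (Tmem173-/- response minus WT response, n = 3 libraries a group, Benjamini-Hochberg adjusted over all genes). The difference on the log2 scale was 1.01 for Pirb, 1.18 for Cd5, 0.73 for Ptpn6, 0.66 for Inpp5d and -1.55 for Lilrb4a. In each of them all 3 WT cGAMP libraries lay on 1 side of all 3 WT control libraries, while the Tmem173-/- groups overlapped. The background of such calls was 31.6% of genes tested. Tmem173 RNA was not lower in the libraries labelled Tmem173-/-, so transcript level gave no check of the label on which this comparison rests. In those libraries 0 of 14473 genes passed for cGAMP against control.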

How the results depend on the processing

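Over 16 alternatives, the number of the 10 genes called in WT cGAMP against WT control ranged from 5 to 8 (main value 7), and over 21 alternatives the number whose response differed between genotypes ranged from 4 to 7 (main value 5). It was 7 or 8 between Tmem173-/- cGAMP and WT cGAMP and 0 in every alternative run for the other contrasts. Pirb, Lilrb4a, Cd5, Ptpn6 and Inpp5d kept their call in WT cells under all 16. With library totals in place of TMM, Cd22 (adjusted p = 0.0616, edgeR) and Fcgr2b (0.0803) were lost in WT, as they were with limma-trend on FPKM. The replicate numbers were not used as pairs in the main fit, since the labels do not say that a number marks 1 mouse. Same-numbered libraries deviated together with correlations of 0.0834 to 0.300, of which 4 of 6 exceeded 0.1. Differently numbered libraries had -0.245 to 0.0506, and each of the 12 libraries correlated best with its own number. With the number as a replicate block, Cd72 was also called in WT (-0.20, adjusted p = 0.0309, edgeR), which made 8 calls (53.5% of all genes called, against 47.8%), and the difference between genotypes was called for Cd22 (0.45, 0.00286) and Fcgr2b (0.26, 0.0308), which made 7 (39.1% of all genes, against 31.6%). Signs changed in 26 of 848 single-gene values, none of them called. Lair1 in WT was -0.88 with limma-voom, -0.16 with the block, -0.086 with log2(FPKM + 0.1), -0.14 without both WT libraries numbered 1, and -0.61 to 0.60 when 1 library was left out. Leaving out 1 library gave -0.39 to 0.059 for Siglecg in WT, -0.11 to 0.34 for its difference between genotypes and -0.033 to 0.42 for it between the controls. Between the controls the range was -0.021 to 0.65 for Lilrb4a and -0.088 to 0.19 for Cd5, and Lair1 under cGAMP ran from -0.0025 to 1.21 between genotypes. In the Tmem173-/- response the ranges were -0.18 to 0.082 for Cd22, -0.23 to 0.098 for Siglecg, -0.095 to 0.030 for Fcgr2b, -0.44 to 0.080 for Lilrb4a and -0.10 to 0.018 for Ptpn6. Over all genes, with no filter edgeR called 23 of 26792 genes in the Tmem173-/- response and 151 between the controls, against 0 in each with it. Between the controls DESeq2 called 4, and edgeR called 1 without WT control replicate 1 or Tmem173-/- control replicate 1 and 5 without both WT libraries numbered 1. The cause was not tested. Depth limits Lair1, with 0 to 16 counts a library.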

Other observations

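Several genes of the set deviated the same way in single libraries. Relative to the group mean of log2 CPM, Cd22 deviated by 0.29 in WT control replicate 2 and -0.24 in WT control replicate 3, and Siglecg by 0.46 and -0.42 in the same libraries. Pirb deviated by 0.22 and -0.26 there. In WT cGAMP replicate 2, Cd22 and Siglecg were high, by 0.15 and 0.26, while the lowest WT cGAMP library was replicate 3 for Cd22 and replicate 1 for Siglecg. In libraries labelled Tmem173-/-, replicate 1 was the lowest for both genes in cGAMP (-0.26 for Cd22 and -0.20 for Siglecg) and in control (-0.32 and -0.43), and Pirb was low in both as well (-0.26 in cGAMP and -0.22 in control). The FPKM ratio of Siglecg over Cd22 was 0.390 ± 0.0332 in WT cGAMP and 0.313 ± 0.0373 in WT control (SD, n = 3), and all WT cGAMP libraries were above all WT control libraries.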
